A study of Homo sapiens with 9 samples.

Results

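The activin and TGF-beta group comprised 10 genes chosen by name: the activin subunit genes INHBA and INHBB, the activin-binding protein genes FST and FSTL3, the ligand genes TGFB1, TGFB2 and TGFB3, the receptor genes TGFBR1 and TGFBR2, and the induced matrix gene TGFBI. All 10 were found among 60230 genes in the tables, and all 10 were among the 17307 genes with enough counts to be tested. They were followed in 9 RNA sequencing libraries of NCI-H358, an established human lung adenocarcinoma cell line, with 3 libraries in each of 3 states. Parental cells were sensitive to sotorasib, a covalent targeted inhibitor used in lung cancer, and received no treatment. The resistant derivative, NCI-H358-R, came from about 2 months of culture in 250 nM sotorasib and was kept in that dose. It was sequenced in the absence of sotorasib (off drug) and on day 4 of a 250 nM dose (on drug). All cells were grown in medium with 10% fetal bovine serum. NCI-H358-R was a single derivative, the sources used here do not give the time off drug, and parental cells under sotorasib were not analysed here. Nothing in the labels states that each replicate was its own culture, and the p-values therefore rest on library-to-library spread alone, some of which may be technical.

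Activins and TGF-betas are secreted dimers that share one signalling design. The ligand joins type II and type I receptor kinases on the cell surface, and the type I receptor phosphorylates SMAD2 and SMAD3, which enter the nucleus with SMAD4 and change transcription. Activins act through their own receptors and are held inactive by follistatin and follistatin-like 3, whereas TGF-betas are secreted in a latent form that must be released from its propeptide. In epithelial cancers TGF-beta signalling is known for slowing growth in some settings and for promoting a mesenchymal state in others.

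Levels are given as CPM, counts scaled to library size with TMM factors, and as TPM, the deposited per-length values, which alone allow a comparison between genes. Library totals ran from 25698500 to 34727826 estimated counts, and 3 counts in a library equal 0.0776 to 0.123 CPM, a floor for counting error only. In on-drug libraries 24189 to 24360 genes had a count, in the others 22079 to 22957, and their TMM factors were 1.11 to 1.12 against 0.917 to 0.972. With library size only, the median of all genes between on-drug and off-drug cells moved from 0.02 to 0.27 on the log2 scale and the share of calls that were higher from 50.1 to 68.5%. Against parental cells the median moved from 0.02 to 0.24 and the share from 50.4 to 64.3%. Keratins and other epithelial markers were abundant in all states, with summed levels of 6666 to 8058 CPM in parental, 6847 to 7050 off drug and 4007 to 4773 on drug. These 6 markers did not move together. Off drug against parental 1 was called higher and 1 lower, and on drug against parental 2 were higher and 4 lower. EPCAM was at 764 to 919 CPM in parental, 397 to 429 off drug and 252 to 264 on drug. Of 6 lung epithelial markers, NKX2-1 led and 4 (SFTPB, SFTPC, SFTPA1 and SCGB1A1) had no count in parental or off-drug libraries.

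INHBA was the member that changed most, from under 1 CPM in parental cells to 88 CPM or more in resistant cells off drug, and it fell again on drug. The other activin subunit gene, INHBB, stepped upward from parental to off drug to on drug, as did FSTL3, TGFB2 and TGFBI. TGFB1, TGFBR1 and TGFBR2 were highest off drug, and TGFB3 was lowest there. Transcripts of the mitochondrial genome also stood apart off drug, at 2.93 to 3.45% of counts against 3.88 to 5.29% in parental and 4.01 to 5.04% in on-drug libraries, and their part in these patterns was not tested. In all, 8 members were higher and 1 lower off drug than in parental cells, 6 were higher and 4 lower on drug than off drug, and 7 were higher and 0 lower on drug than in parental cells. FST is one of the 6 and one of the 7, and its call there was fixed by the filter on low counts, which it passed only on drug; without it the counts of higher members are 5 and 6. Calls were at an adjusted p under 0.05 in edgeR's quasi-likelihood test. Among all genes tested, 55.0% were called off drug against parental (28.4% higher, 26.6% lower), 62.6% on drug against off drug (31.4% higher, 31.2% lower) and 66.3% on drug against parental (33.4% higher, 32.9% lower). A change of at least 2-fold was called in 5, 4 and 6 members in the same order, against 17.2, 24.8 and 27.3% of all genes. Some calls, those of FST among them, had a lower state that reached the filter's level in no library. Without such calls the 2-fold counts are 5, 3 and 5 members, against 2311, 3436 and 3744 of 17307 genes. On the same basis the 5 and 6 higher members stand beside 4871 and 5222 genes called higher. Libraries of the compared states did not overlap for 9, 10 and 7 members (FST among the 10 and the 7), against 61.9, 67.6 and 69.0% of all genes. These comparisons share libraries in pairs, so they are not independent of each other.

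**Figure D1:**
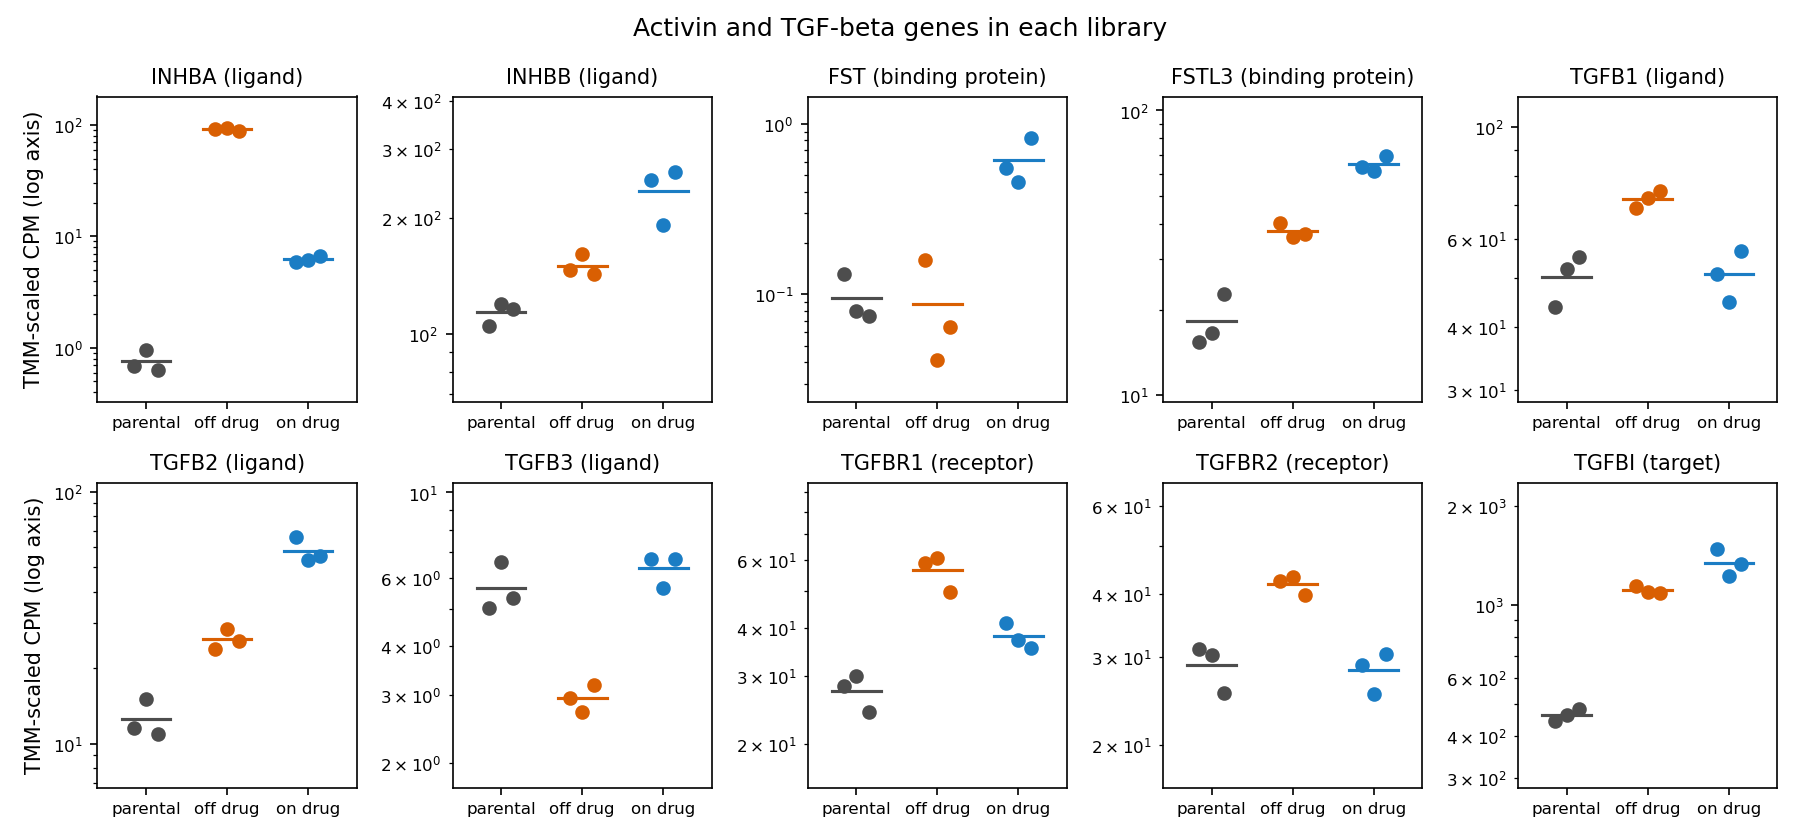
Level of each of the 10 genes in every library, in TMM-scaled CPM on a log axis whose range differs between panels; points are libraries and bars are means of 3. INHBA lies at 0.633 to 0.962 CPM in parental cells, 88 to 93.5 off drug and 5.91 to 6.73 on drug, while TGFB2, FSTL3, INHBB and TGFBI step upward across the states.

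Upstream sequence is shown for the gene with the largest change, INHBA, and for TGFB2, the only one of the TGF-beta ligand genes that rose in both steps. Windows are from RefSeq on GRCh38.p14, 5′ to 3′ on the gene's strand, and end at or before the RefSeq start used. The INHBA stretch is chr7:41703109-41703340 on the minus strand, inside the longer INHBA gene of GENCODE 29 but outside its exons, ending 18 bases short of the RefSeq start because those bases lie in an annotated exon. That of TGFB2 is chr1:218345086-218345335 on the plus strand, and part of it is also an exon of the antisense gene TGFB2-AS1. The RefSeq start of TGFB2 used here lies upstream of its GENCODE 29 gene start, 218346235. Capitals mark matches to the motifs searched.
INHBA: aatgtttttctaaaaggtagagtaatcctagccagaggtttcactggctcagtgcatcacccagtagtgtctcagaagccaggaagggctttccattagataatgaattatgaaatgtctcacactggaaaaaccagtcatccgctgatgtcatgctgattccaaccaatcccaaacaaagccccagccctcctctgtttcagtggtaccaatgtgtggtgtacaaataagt
TGFB2: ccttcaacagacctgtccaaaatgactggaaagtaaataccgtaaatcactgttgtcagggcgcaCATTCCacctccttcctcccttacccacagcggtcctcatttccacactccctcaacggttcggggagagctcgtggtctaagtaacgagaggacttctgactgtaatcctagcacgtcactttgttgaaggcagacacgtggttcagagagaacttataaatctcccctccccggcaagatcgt
Both strands of the 250 bases before each start were searched for TGANTCA (AP-1), GTCTAGAC (a SMAD palindrome), AGCCAGACA (a SMAD-binding CAGA box) and GGAATG (the TEAD core). These letters occur in 6.57, 0.182, 0.231 and 11.9% of 35116 such windows. All 10 members had at least 1 window. The INHBA window held none of the 4 motifs, that of TGFB2 held 1 TEAD core 185 to 180 bases before the RefSeq start, and the FST window held 1 AP-1 match at 160 to 154 bases. The last 220 bases of the FST window, which hold that match, lie in an annotated FST exon. Among 8 alternative starts of TGFBR1, 1 window held a TEAD core. The SMAD palindrome and the CAGA box were in no member window. A match is a description of letters, not of binding.

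INHBA (ENSG00000122641.11, chromosome 7, 41667168 to 41705834, minus strand, in GENCODE 29 on GRCh38) encodes the beta A subunit, which pairs with itself to form activin A. Its levels were 0.687, 0.962 and 0.633 CPM in parental replicates 1 to 3, 92.8, 93.5 and 88 CPM off drug, and 5.91, 6.14 and 6.73 CPM on drug. The 3 states did not overlap, and the spread within each was small beside the gaps between them. In estimated counts, the parental libraries held 17 to 24 reads and the off-drug libraries 2284 to 2743. INHBA rose by 6.92 ± 0.13 on the log2 scale (SE, n = 3 per state) off drug against parental (adjusted p = 6.7e-15). With so few parental reads this SE, which is derived from the test statistic, may understate the counting error. On drug against off drug it fell by 3.87 ± 0.10 (adjusted p = 4.3e-14), to 6.84% of the off-drug mean, and it still stood 3.05 ± 0.15 above parental (adjusted p = 6.4e-11). On log2(TPM + 1) values, where the added 1 exceeds the parental level, the 3 differences were smaller, at 4.17, −3.01 and 1.16, and all remained called. In bulk RNA, fewer cells making a transcript and less of it per cell cannot be told apart, here and for every gene below.

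INHBB (ENSG00000163083.6, chromosome 2, 120346143 to 120351808) encodes the beta B subunit, which forms activin B and, with the beta A subunit, activin AB. It was measured at 105, 119.7 and 116 CPM in parental cells, 147, 161 and 143 CPM off drug, and 249.9, 191 and 262 CPM on drug. Every off-drug library was above every parental library and below every on-drug library. The rise was 0.40 ± 0.11 off drug against parental (adjusted p = 0.0046), a further 0.64 ± 0.11 on drug against off drug (adjusted p = 7.1e-05), and 1.04 ± 0.11 over both (adjusted p = 3.5e-07). Per length, INHBB was the more abundant subunit transcript in all 9 libraries. INHBA made up 0.371 to 0.581% of the summed TPM of both subunits in parental cells, 29.4 to 33.3% off drug and 1.64 to 2.11% on drug. Thus the 2 activin subunit genes moved in opposite directions on drug. Their sum had a mean of 28.98 ± 2.51 TPM (SD, n = 3) in parental cells, 61.5 ± 5.81 off drug and 80.8 ± 16.1 on drug. The sums off drug, 55.9 to 67.5, and on drug, 62.2 to 90.5, overlapped, and their difference was not tested.

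FST (ENSG00000134363.12, chromosome 5, 53480409 to 53487134) encodes follistatin, which binds activins tightly and blocks their receptor sites. It was barely detected: the libraries held 4, 2 and 2 counts in parental cells, 4, 1 and 2 off drug, and 21, 17 and 32 on drug. FST entered the test only through its on-drug libraries, so a difference there had to follow. Summed over 3 libraries the counts were 8, 7 and 70, and the rate on drug was 7.08 times that off drug, with an exact 95% interval of 3.26 to 18.3, and 6.32 times that in parental cells (3.04 to 15.2), intervals that cover counting error only. The fitted changes were 2.76 ± 0.57 (adjusted p = 0.00051) and 2.61 ± 0.55 (adjusted p = 0.00058). Without off-drug replicate 1 the first of these became 3.41, and on log2(TPM + 1) values with no filter they were 0.34 and 0.30. Between off-drug and parental cells, both at or near the floor, the adjusted p was 0.89.

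FSTL3 (ENSG00000070404.10, chromosome 19, 676365 to 683399) encodes follistatin-like 3, a related secreted protein that binds activins and is itself known as a gene induced by activin and TGF-beta. Its levels were 15.4, 16.5 and 22.7 CPM in parental cells, 40.4, 35.9 and 36.8 CPM off drug, and 63.4, 61.5 and 69.2 CPM on drug. No library of one state overlapped another state. FSTL3 rose 1.05 ± 0.12 off drug against parental (adjusted p = 2.6e-06), 0.78 ± 0.12 on drug against off drug (adjusted p = 2.4e-05) and 1.83 ± 0.12 on drug against parental (adjusted p = 2.1e-09). It was the main activin-binding transcript of the pair in every library, at 5.65 to 8.90 TPM in parental and 30.1 to 35.8 TPM on drug, where FST was listed at 0.346, 0.2496 and 0.492 TPM.

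The balance of INHBA against both binding proteins was taken as the ratio of TPM values within each library. It was 0.0224, 0.0265 and 0.012 in parental cells, 1.16, 1.20 and 1.27 off drug, and 0.0421, 0.0432 and 0.0521 on drug. The off-drug libraries were thus the only ones of the 9 with more INHBA than FST plus FSTL3. On the log2 scale the ratio was 5.97 higher off drug than in parental cells, and the on-drug minus off-drug difference was −4.73, with on-drug cells 1.24 higher than parental cells. Each difference had an exact two-sided permutation p of 0.1, the smallest that 3 against 3 libraries allow (adjusted p = 0.133 over 12 tests). Set against both subunits instead, FSTL3 stood at 0.245 ± 0.0555 of INHBA plus INHBB in parental cells (SD, n = 3), 0.262 ± 0.0199 off drug and 0.423 ± 0.0533 on drug.

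TGFB1 (ENSG00000105329.11, chromosome 19, 41301587 to 41353911, minus strand) encodes the most widely made TGF-beta ligand. It was measured at 43.8, 52.3 and 55.3 CPM in parental cells, 69, 72.1 and 74.7 CPM off drug, and 51.1, 45 and 56.8 CPM on drug. The off-drug libraries stood above all others, and parental and on-drug libraries overlapped. TGFB1 rose 0.51 ± 0.10 off drug against parental (adjusted p = 0.00048) and fell by 0.50 ± 0.10 on drug against off drug (adjusted p = 0.00047). That fall depended on the unit: on log2(TPM + 1) values it was 0.18 in size (value −0.18, adjusted p = 0.27), and the TPM values themselves, 21.4, 25 and 21.6 off drug and 21.3, 16.3 and 22.7 on drug, overlapped. On drug against parental TGFB1 was not called (0.02 ± 0.10, adjusted p = 0.90), although it was with library size only (0.24, adjusted p = 0.044) and on log2(TPM + 1) values (0.48, adjusted p = 0.0068). The opposite strand holds HNRNPUL1, whose exons share 6.64% of the exonic bases of TGFB1.

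TGFB2 (ENSG00000092969.12, chromosome 1, 218346235 to 218444619) encodes a ligand that needs the coreceptor betaglycan for efficient receptor binding. The betaglycan gene, TGFBR3, was low in every state, at means of 0.394 CPM in parental cells, 0.508 off drug and 0.463 on drug. TGFB2 levels were 11.6, 15.1 and 10.9 CPM in parental cells, 23.7, 28.4 and 25.6 CPM off drug, and 66.1, 53.5 and 55.4 CPM on drug. The states did not overlap in CPM. The rise was 1.05 ± 0.13 off drug against parental (adjusted p = 3.4e-06), 1.17 ± 0.12 on drug against off drug (adjusted p = 3.0e-07) and 2.22 ± 0.12 on drug against parental (adjusted p = 2.5e-10). On log2(TPM + 1) values the 2 steps were less alike, at 0.71 and 1.51. An overlapping transcript on the same strand, TGFB2-OT1, shares 26.6% of the exonic bases of TGFB2 and held 47.6 to 336 counts per library, so part of the reads may be split between them.

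TGFB3 (ENSG00000119699.8, chromosome 14, 75958099 to 75982991, minus strand) encodes the third ligand. It was measured at 5.04, 6.61 and 5.32 CPM in parental cells, 2.94, 2.70 and 3.18 CPM off drug, and 6.75, 5.65 and 6.73 CPM on drug. It was the only member called lower off drug than in parental cells, by 0.94 ± 0.16 (value −0.94, adjusted p = 0.00012), a call lost on log2(TPM + 1) values with no filter (−0.43, adjusted p = 0.11). On drug it rose 1.11 ± 0.16 against off drug (adjusted p = 1.3e-05). Parental and on-drug libraries overlapped (0.18 ± 0.15, adjusted p = 0.30), and that difference was called with library size only (0.40, adjusted p = 0.026) and on log2(TPM + 1) values (0.49, adjusted p = 0.016).

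Among the 3 TGF-beta ligand transcripts the most abundant per length was TGFB1 in parental and off-drug cells, and TGFB1 and TGFB2 were level on drug. TGFB2 made up 18.3 ± 2.13% of their summed TPM in parental cells (SD, n = 3), 21.3 ± 2.23% off drug and 46.9 ± 2.34% on drug. The TGFB1 share was 73.4 ± 2.51, 75.5 ± 1.62 and 46.7 ± 3.68% in the same order. The share of TGFB2 was 25.6 percentage points higher on drug than off drug, with no overlap (exact two-sided permutation p = 0.1, the smallest possible). Their summed TPM was 19.2 ± 2.78 in parental cells, 30.04 ± 3.34 off drug and 42.8 ± 4.71 on drug.

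**Figure D2:**
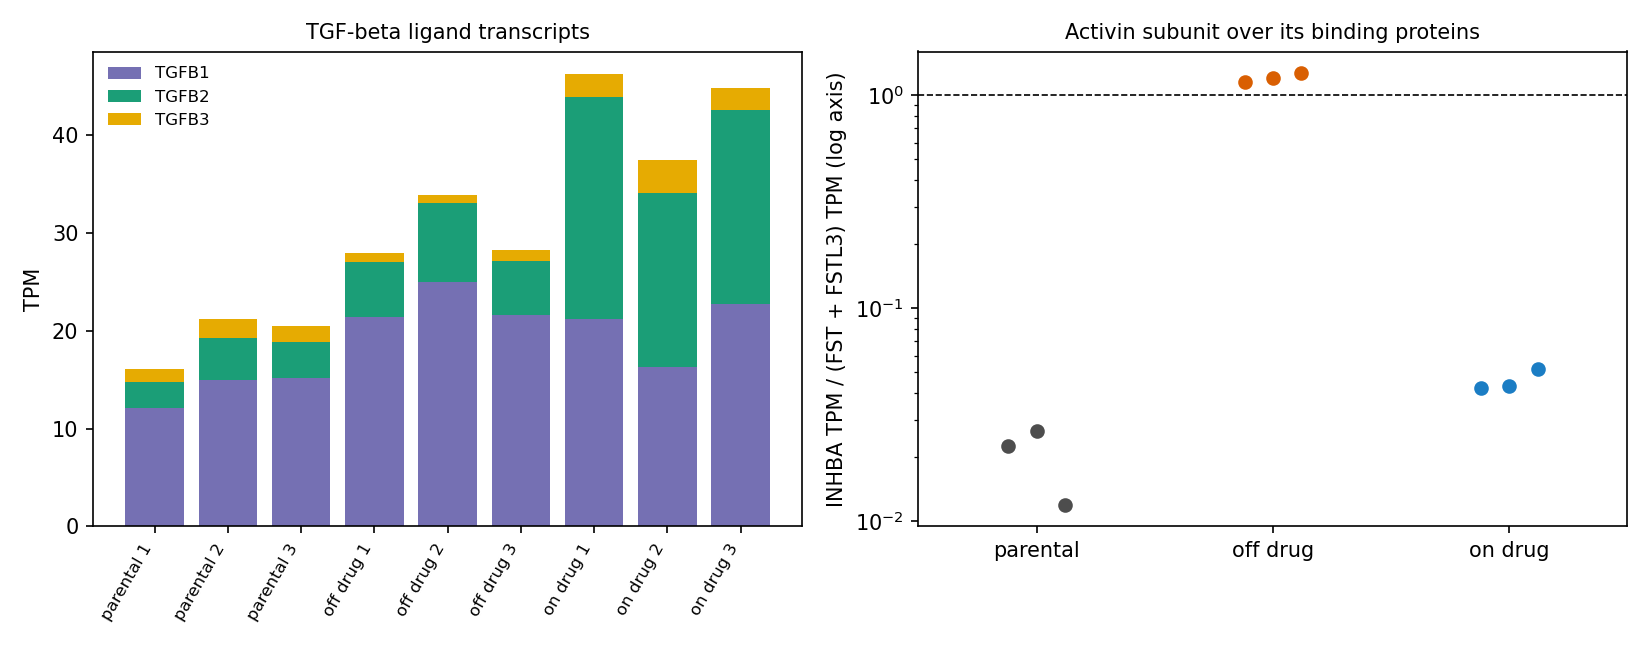
Left, TPM of TGFB1, TGFB2 and TGFB3 stacked for each library; right, the ratio of INHBA TPM to FST plus FSTL3 TPM per library on a log axis, with a dashed line at equality. TGFB2 takes 46.9% of the ligand sum on drug against 21.3% off drug, and only the off-drug points, 1.16 to 1.27, lie above the line.

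TGFBR1 (ENSG00000106799.13, chromosome 9, 99104038 to 99154192) encodes the type I receptor kinase of TGF-beta. Its levels were 28.2, 29.9 and 24.2 CPM in parental cells, 59.1, 60.6 and 49.7 CPM off drug, and 41.3, 37.2 and 35.6 CPM on drug. The states did not overlap, with on-drug cells between the other states. TGFBR1 rose 1.04 ± 0.10 off drug against parental (adjusted p = 5.0e-07), fell by 0.57 ± 0.10 on drug against off drug (adjusted p = 0.00014) and stood 0.47 ± 0.10 above parental on drug (adjusted p = 0.00081). The fall was not called on log2(TPM + 1) values with no filter (−0.44, adjusted p = 0.058).

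TGFBR2 (ENSG00000163513.19, chromosome 3, 30606502 to 30694142) encodes the type II receptor, which binds the ligand first and activates TGFBR1. It was measured at 31.2, 30.3 and 25.4 CPM in parental cells, 42.5, 43.3 and 39.9 CPM off drug, and 29, 25.3 and 30.4 CPM on drug. Only the off-drug libraries stood apart. TGFBR2 rose 0.53 ± 0.10 (adjusted p = 0.00023) and then fell by 0.57 ± 0.10 (adjusted p = 8.7e-05), a fall not called on log2(TPM + 1) values (−0.26, adjusted p = 0.11). On drug against parental it was not called (−0.04 ± 0.10, adjusted p = 0.75), and on those TPM values the difference had the other sign (0.32, adjusted p = 0.049). Per length TGFBR1 was below TGFBR2 in all parental libraries, at 0.756 to 0.863 of its TPM, and above it in all off-drug libraries, at 1.08 to 1.31, while on drug the ratio was 0.937 to 1.24.

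TGFBI (ENSG00000120708.17, chromosome 5, 136028895 to 136063818) encodes a secreted matrix protein named for its induction by TGF-beta. It was by far the most abundant member per length, at 159.6 to 204 TPM in parental cells, 402 to 449.6 TPM off drug and 613 to 828 TPM on drug. In CPM the libraries held 445, 463 and 485 in parental cells, 1139, 1097 and 1087 off drug, and 1473, 1220.4 and 1333 on drug. TGFBI rose 1.25 ± 0.08 off drug against parental (adjusted p = 6.1e-09), and 0.28 ± 0.08 on drug against off drug (adjusted p = 0.0083), a step that was 0.53 with library size only and 0.74 on log2(TPM + 1) values. On drug it was 1.53 ± 0.08 above parental (adjusted p = 2.2e-10). Of the other members, INHBA, TGFB1, TGFBR1 and TGFBR2 were lower in CPM on drug than off drug, and INHBB, FST, FSTL3, TGFB2 and TGFB3 were higher. The part of any of them in the change of TGFBI was not tested.

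**Figure D3:**
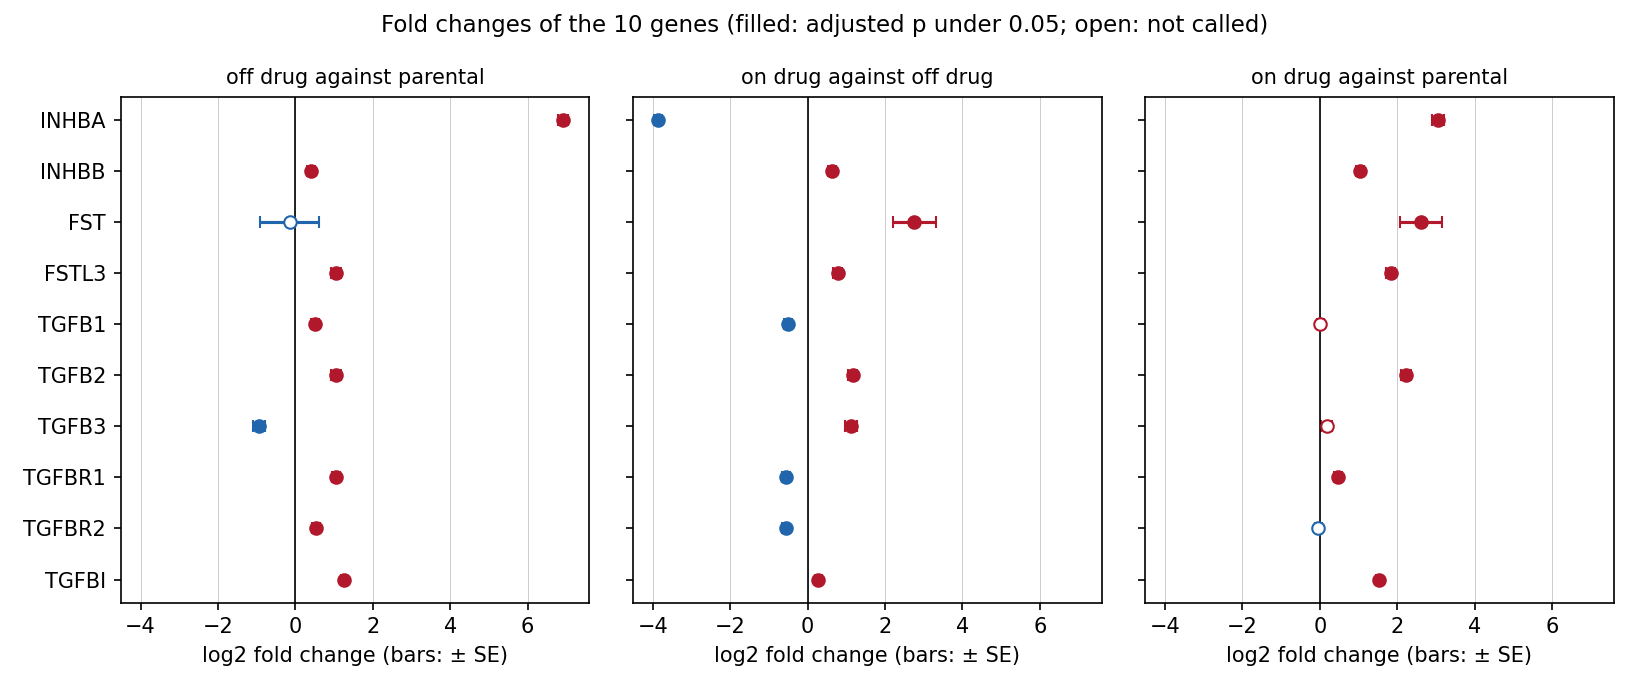
Fitted log2 fold change of each gene with its SE in the 3 comparisons; filled points are called and open points are not. INHBA runs from 6.92 to −3.87 and then 3.05, and FST has the widest bars because it held 1 to 4 counts per library in parental and off-drug cells.

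Other genes of the pathway were counted from lists of its ligands, receptors, latency and activation factors, binding proteins, SMADs and response genes. Their calls rest on scaled counts alone, and falls on drug can depend on the unit, as for TGFB1 and TGFBR2. Each count below stands beside the shares over all genes tested. These were 28.4% higher and 26.6% lower off drug against parental, and 31.4 and 31.2% on drug against off drug. On drug against parental they were 33.4 and 32.9%. Of 10 other ligand genes 4 could be tested. GDF11, a ligand close to myostatin, was higher off drug than in parental cells (0.44 ± 0.11) and higher again on drug (0.64 ± 0.10). Off drug 2 of the 4 were called higher and 2 lower, but INHBE and INHA reached the filter's level in no library of their lower state, so those calls were largely fixed by the filter. The other 3 lay below the level set for naming and were chosen after their values were seen: INHBE, a beta subunit gene of the inhibin family, was called higher (2.57), and INHA, the inhibin alpha subunit gene (−1.76), and GDF1 (0.942 against 1.91 CPM) were called lower. Among 7 tested receptors and coreceptors, 1 was higher and 2 lower off drug than in parental cells. ENG, the gene of the coreceptor endoglin, rose 0.60 ± 0.18, and ACVR1B, which encodes the main type I activin receptor, fell from 13.6 ± 1.33 to 7.62 ± 0.354 CPM (−0.84 ± 0.11, adjusted p = 1.2e-05). The other lower one, named after its value was seen, was the activin receptor gene ACVR1C (−1.29). On drug against off drug, 0 rose and 3 fell, ENG by 2.39 ± 0.20 and ACVR2B, a type II activin receptor gene, by 0.70 ± 0.11, with ACVR1 also lower (−0.46). In TPM the ACVR1 libraries overlapped, at 9.82 to 12.7 off drug and 8.38 to 10.7 on drug.

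The 13 genes of TGF-beta latency and activation parted evenly off drug, with 4 higher and 4 lower than in parental cells, LRRC32 among the lower ones and below the filter's level off drug. LTBP1, whose product tethers latent TGF-beta to the matrix, rose from 25.2 ± 0.827 to 98.4 ± 4.57 CPM (1.96 ± 0.08), and NRROS, which encodes an anchor of latent TGF-beta on the cell surface, rose 3.12 ± 0.24. The integrin genes ITGB6 and ITGB8, whose products release TGF-beta from its latent form, fell by 1.99 ± 0.10 and 1.48 ± 0.21. On drug against off drug 4 rose, LRRC32 again through the filter, and 7 fell. LTBP1 fell by 2.57 ± 0.08 and NRROS by 2.52 ± 0.22, while ITGB8 rose 2.28 ± 0.21 and THBS1, the gene of the activator thrombospondin, rose from 39.5 ± 0.852 to 238 ± 21.1 CPM (2.59 ± 0.09). Against parental cells, ITGB6 was lower on drug by 3.41 ± 0.10 and LTBP3 by 2.04 ± 0.09. Of 5 tested genes of other extracellular binding proteins, 3 were higher and 1 lower off drug than in parental cells. IGSF1 was the lower one (−0.53 ± 0.19), and the higher ones, chosen after their values were seen, were HTRA1 (2.39), FSTL1 (1.38) and BGN, which had no count in parental libraries and a mean of 0.232 CPM off drug. FSTL1 and BGN reached the filter's level in no parental library, so their calls were largely fixed by it.

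Of 17 tested SMADs and SMAD regulators, 13 were higher and 1 lower off drug than in parental cells, with a median log2 change of 0.48 against 0.00 over all genes. NEDD4L and SMURF2, ubiquitin ligase genes whose products target SMADs and receptors, rose 2.00 ± 0.10 and 1.94 ± 0.08. The lower one, named after its value was seen, was ZFYVE9, which encodes a protein that presents SMAD2 and SMAD3 to the receptor (−0.94). On drug against off drug 1 rose and 8 fell (median −0.27 against 0.02). SMAD3, a receptor-activated SMAD gene, fell from 357 ± 4.62 to 111 ± 6.83 CPM (−1.69 ± 0.09), and NEDD4L fell by 1.45 ± 0.10. TGIF2, a repressor gene of SMAD targets, was the one that rose (0.22 ± 0.08). In TPM SMAD3 fell as well, from 79.7 to 82.0 off drug to 25.2 to 28.5 on drug. PPM1A, of the same list, changed direction with the unit. It was at 86.5 to 92.1 CPM off drug and 64.7 to 66.7 on drug, but at 34.1 to 35.2 and 35.9 to 41.1 TPM. On drug against parental, 7 were higher and 4 lower. PMEPA1 and SMAD7, feedback inhibitor genes of the pathway, rose 0.86 ± 0.09 and 0.70 ± 0.11, whereas SMAD3 fell by 1.55 ± 0.09.

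Of 17 tested TGF-beta response genes, 10 were higher and 5 lower off drug than in parental cells, with a median of 0.49. CCN2, which encodes a secreted matricellular protein, rose from 5.03 ± 0.678 to 42 ± 3.65 CPM (3.06 ± 0.11). COL1A1 fell by 0.93 ± 0.10 and the cell cycle inhibitor gene CDKN1A by 0.78 ± 0.08. On drug against off drug 4 rose and 9 fell, with a median of −0.39. TAGLN and TPM1, actin-binding protein genes, rose 2.90 ± 0.14 and 1.71 ± 0.08, while ANGPTL4 fell by 3.33 ± 0.23 and ITGB5 by 2.33 ± 0.10. CCN2 was not called on drug against off drug (−0.14 ± 0.10, adjusted p = 0.21). 

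**Figure D4:**
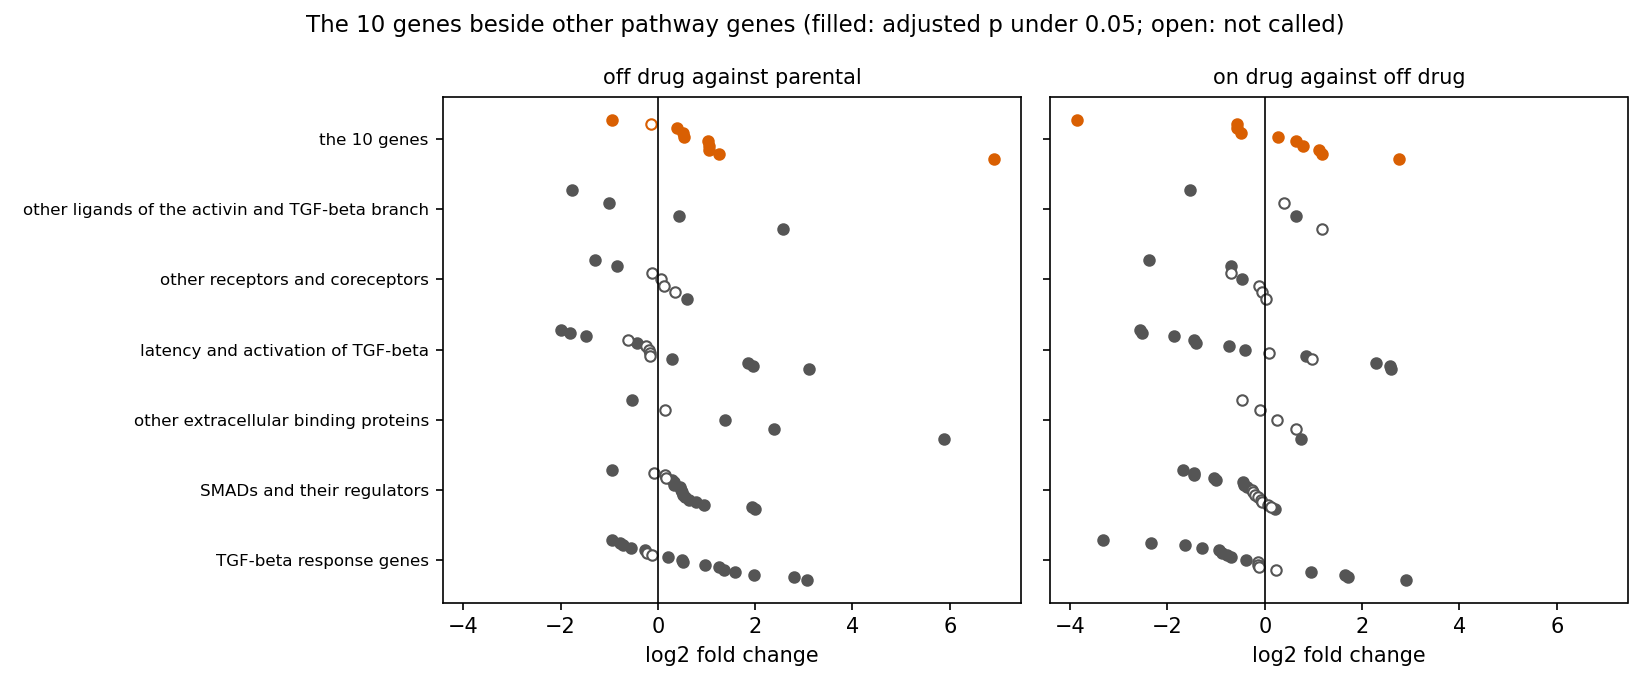
Log2 fold change of the 10 genes (orange) and of other tested pathway genes by list (grey), off drug against parental on the left and on drug against off drug on the right; filled points are called. Of the SMADs and regulators, 13 of 17 are called higher on the left and 8 of 17 lower on the right. Over all genes tested, 28.4% are called higher on the left and 31.2% lower on the right.

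Markers of other cell types were read beside these results. The summed level of 9 fibroblast markers was 27 to 31.1 CPM in parental cells, 18.3 to 19.1 off drug and 127 to 159 on drug, with LUM, at 89.3 CPM on drug, the largest part. The lower sum off drug hides markers that went the other way. Against parental cells 3 were called higher there (PDGFRA, PDGFRB and THY1) and 1 lower (COL1A1), with a median log2 change of 1.27. Those 3 reached the filter's level in no parental library. PDGFRB was at 0 to 0.0372 CPM in parental cells, 1.56 to 2.46 off drug and 2.10 to 2.80 on drug. COL1A1 went from 26.6 CPM in parental cells and 13.9 off drug to 43.9 on drug, and COL3A1 from no count in the other 6 libraries to 4.36 to 5.15 CPM. On drug THY1 stood at 0.619 to 1.06 CPM, COL1A2 at 0.418 to 0.647 and DCN at 0.135 to 0.181, and all of these had 0 to 1 count in each parental library. The 8 that could be tested were all called higher on drug than in parental cells, but 6 of them reached the filter's level in no parental library, so that count is no support. A list of 6 endothelial markers summed to 11 to 13.8, 42.2 to 42.5 and 13.9 to 18.5 CPM in the same order of states. KDR, ESAM and PECAM1 carried that sum and were called lower on drug than off drug, whereas CDH5 (0.222 to 2.08 CPM) and VWF (0.381 to 1.59 CPM) were called higher. PECAM1 reached the filter's level in no on-drug library, so its call was largely fixed by the filter. A list of 6 leukocyte markers summed to 60.6 to 70.6, 73.4 to 81.2 and 8.08 to 9.45 CPM, of which CD68 was the largest part while PTPRC, the pan-leukocyte gene, was at 0 to 0.183 CPM. The part of these marker lists in the changes of INHBA, FSTL3 and TGFB2 was not tested.

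Genes with the profile most like a member were sought over the 9 libraries for the 4 members with the widest range, as the root mean square difference between centred log2 CPM profiles. The libraries fall into 3 states, so likeness rests mostly on 3 means. For INHBA the closest were TIE1 (0.52, Pearson r = 0.992), MAG (0.75, r = 0.992) and BCL2A1 (0.90, r = 0.976), all of them highest off drug and lowest in parental cells. MAG, for example, was at 0.914, 33.5 and 3.63 CPM in the 3 states. For TGFB2 they were ATAD5 (0.12, r = 0.993), CDC25A (0.12, r = 0.991) and TENM3 (0.12, r = 0.991), and for FSTL3 H2AX (0.12, r = 0.99), BMP4 (0.12, r = 0.987) and PRKAR1B (0.14, r = 0.986). BMP4, a ligand gene of the related BMP branch, went from 17.9 ± 0.757 to 35 ± 2.61 and 64.1 ± 2.93 CPM. For FST, whose counts were lowest, the closest genes were SLC16A9, WDR76 and GPRIN1, at 0.40 to 0.42.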

How the data were processed

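Poly(A) RNA from 9 libraries was sequenced as pairs of 150-base reads, per the labels' protocols. The submitters' processing notes name bcl2fastq 2.17, FastQC 0.12.1, Salmon 0.14.1 and GRCh38.p13, with no role stated. The sources used here give no annotation release, strand setting or tool for summing transcripts. The authors deposited estimated counts, fractional and unscaled, and TPM values, scaled for length and depth. Counts were rounded, as planned for estimated counts, and fitted with edgeR 4.0.16 in R 4.3.3: TMM scaling, filterByExpr (minimum count 10, minimum total 15), a mean per state, and the quasi-likelihood test with Benjamini-Hochberg adjustment over all 17307 genes tested. The SE is the size of the log2 fold change divided by the square root of F. Symbols matched 60089 of 60230 identifiers.

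The steps were run on simulated counts in which only a small part of the genes changed. In these data far more were called, so that run does not test the scaling. No pair of replicates agreed within sampling noise (chi-square per degree of freedom at least 5.11), so none was merged. Alternatives were RLE and upper-quartile factors, unscaled library sizes, counts unfiltered or with a minimum count of 50, DESeq2 1.42.0, limma 3.58.1 with voom or on log2(TPM + 1) and log2(TPM + 0.1) values (mean TPM of at least 1, or no filter), a replicate block, fits restricted to a pair of states, and leaving out each library in turn.

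The 10 members and the pathway and marker lists were chosen with earlier results of these data known. Pathway genes named are up to 2 called genes with the largest rise and 2 with the largest fall per list and comparison (average log2 CPM 1 or more), of which the text gives a selection; some are not reported here. Likeness was sought above an average log2 CPM of 2.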

Additional observations from a re-analysis of the deposited data

How the results depend on the processing

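Counts of members called kept within 1.5 times under every alternative run: 8 or 9 off drug against parental, 7 to 10 on drug against off drug and 6 to 9 on drug against parental. With a replicate block the counts were 9, 10 and 7, the same as without it, and genes called over the whole table were 9443, 10758 and 11417. Deviations from the state means correlated between same-numbered libraries at −0.03 to 0.13, and 3 of 9 libraries correlated best with their own number, so the numbers are not taken as pairs. Without 1 library, genes called were 8477 to 9731, 9943 to 11393 and 10678 to 11542. The sign turned for members that were not called. FST off drug against parental ranged from −0.80 to 0.16 with 1 library left out, TGFB1 on drug against parental from −0.0797 to 0.0903 and TGFBR2 from −0.12 to 0.0271. TGFBR2 on drug against parental also took the value 0.0055 with upper-quartile factors, 0.0099 with no filter on counts, 0.18 with library size only, 0.32 on log2(TPM + 1) values with or without a filter, and 0.35 on log2(TPM + 0.1) values. The TGFB1 share of the ligands off drug against parental was 2.15 points higher in TPM and differed by −2.08 points in CPM. The causes were not tested. FST could not be fitted where a mean TPM of 1 or a minimum count of 50 was required. Depth limits FST in parental and off-drug cells, where 3 counts are its floor.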
